A study of Mus musculus with 282 samples.

Results

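The cells described here are MCM-rich hematopoietic stem cells (HSCs), single mouse HSCs with RNA of most of the 6 subunit genes of the replicative helicase, set against MCM-poor HSCs of the same sort. A cell was called MCM-rich when at least 4 of Mcm2, Mcm3, Mcm4, Mcm5, Mcm6 and Mcm7 reached 10 CPM (counts scaled to a common total per cell), and MCM-poor when 0 or 1 did. Of 232 cells with enough reads, out of 282 in all, 50 were MCM-rich and 101 were MCM-poor, and the 81 cells with 2 or 3 such genes were left out. The cells were selected on the measured levels of these 6 genes, so their own levels are described without a test. The counts measure RNA and not helicase loaded on DNA.

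All cells belonged to 1 untreated group. They came from 6 adult mice of 12 to 22 weeks, used in 2 experiments, that were homozygous for a doxycycline-dependent transactivator at Rosa26 (R26 rtTA/rtTA) and for the H2B-GFP label-retention transgene at Col1a1 (Col1A1 H2B-GFP/H2B-GFP) and had not been induced. The sort took lineage-negative, Sca-1+, Kit+ bone marrow cells that were CD48-/lo and CD150+. The labels name no mouse for a cell. They name 2 library series (L29 and L32), an HSC code and a plate, which gave 6 sets and 9 set-plates (a set on 1 plate), and all comparisons were made within set-plates. P-values therefore measure the spread between set-plates or sets, which may be technical.

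The MCM2-7 proteins form a ring that the origin recognition complex, CDC6 and CDT1 load onto origins in G1, a step called licensing, and geminin blocks CDT1 once S phase has begun. CDC7, CDC45 and the GINS complex then turn the loaded ring into the active helicase, and polymerases, clamp and clamp loader copy the DNA behind it. Quiescent cells lose much of this machinery, most adult HSCs are quiescent, and E2F factors switch its genes on when a cell leaves G0.

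Promoter stretches of genes that carry the comparison are shown because E2F factors are known to bind such elements in the genes that chose the classes. The motifs searched were TTTCCCGC and TTTGGCGC on both strands, in RefSeq promoters of 300 bases (build GRCm38.p6). Capitals mark a match on either strand, and each stretch reads 5′ to 3′ along its gene. Mcm6 had 2 matches, and the stretch shown holds 1 of them.
Mcm3 (chr1:20820263-20820318, minus strand): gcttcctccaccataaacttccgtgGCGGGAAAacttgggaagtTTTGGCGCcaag
Mcm5 (chr8:75109335-75109392, plus strand): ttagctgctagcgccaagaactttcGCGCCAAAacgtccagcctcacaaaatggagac
Mcm6 (chr1:128359783-128359840, minus strand): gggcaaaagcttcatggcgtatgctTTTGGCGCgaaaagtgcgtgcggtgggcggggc
Mcm7 (chr5:138172016-138172073, minus strand): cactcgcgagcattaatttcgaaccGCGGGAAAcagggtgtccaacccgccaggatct
Cdt1 (chr8:122568022-122568064, plus strand): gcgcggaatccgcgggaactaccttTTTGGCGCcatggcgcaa
Hells (chr19:38930903-38930960, plus strand): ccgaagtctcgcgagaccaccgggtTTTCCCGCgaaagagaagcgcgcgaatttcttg
A match was present in 4 of the 5 Mcm2 to Mcm7 genes in the promoter table, with none for Mcm2 and no entry for Mcm4. Of all 32851 promoters 1.56% held a match, and 1.8% of all genes with a promoter did. The share was 5 of 12 licensing genes, 1 of 7 origin firing genes, 6 of 27 replication fork genes, 6 of 19 replication chromatin genes and 5 of 20 E2F and cyclin genes. It was 3 of 16 checkpoint and repair genes, 2 of 27 G2/M genes and 1 of 24 nucleotide synthesis genes, and outside replication 2 of 19 growth genes, 2 of 19 HSC identity genes and 0 of 13 quiescence genes. No match was present for Uhrf1, Lig1, Pcna or Fignl1, which says only that these letters are not in those windows.

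The 6 helicase genes were not detected equally often. In MCM-rich cells Mcm6 reached 10 CPM in 49 of 50, Mcm7 in 47, Mcm3 in 45, Mcm2 in 43, Mcm4 in 39 and Mcm5 in 36. In the 101 MCM-poor cells the counts were 21 for Mcm6, 9 for Mcm7, 9 for Mcm3, 5 for Mcm2, 6 for Mcm4 and 3 for Mcm5. Mcm6 was thus the subunit gene most often seen in both classes, and Mcm5 the one least often seen. The summed CPM of the 6 genes had a lowest, median and highest value of 214, 1918 and 6699 in MCM-rich cells, against 0, 50.1 and 1909 in MCM-poor cells, so single cells of the classes overlapped in total Mcm RNA. Over the 9 set-plates, the summed counts gave Mcm3 135 to 703 CPM in MCM-rich and 0 to 108 CPM in MCM-poor cells. For Mcm7 the ranges were 119 to 358 CPM in MCM-rich and 0 to 103 CPM in MCM-poor cells. These 2 genes did not overlap between classes, while Mcm2, Mcm4, Mcm5 and Mcm6 overlapped.

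Cells spread over the whole scale. From 0 to 6 Mcm genes, the numbers of cells were 48, 53, 51, 30, 14, 13 and 23, so all 6 genes together were more frequent than 4 or 5 of them. Cells just inside the MCM-rich rule, with 4 genes, had a median summed Mcm level of 1062 CPM, and those just outside, with 3 genes, had 894 CPM. MCM-poor cells with 1 gene had a median of 338 CPM and cells with 2 genes 489 CPM. In the median kept cell 10 CPM is 2.8 reads, and 24 of 232 cells had an Mcm gene within 5 CPM of the threshold.

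**Figure D1:**
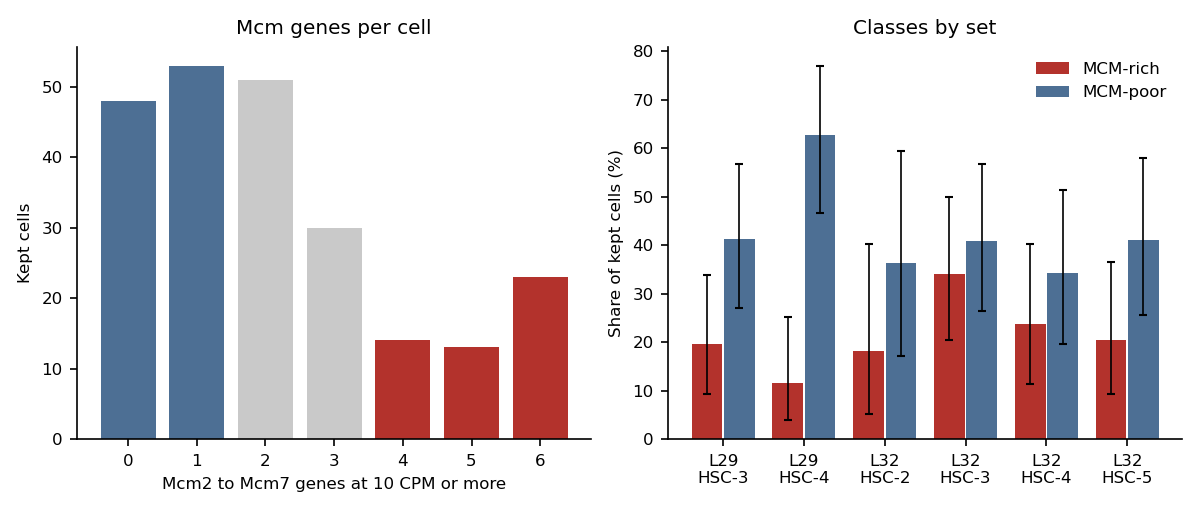
Left, number of kept cells by the number of Mcm2 to Mcm7 genes at 10 CPM or more, coloured by class (grey, left out). Right, share of kept cells in each class by set, with exact Clopper-Pearson 95% intervals; L29 HSC-4 had 11.6% MCM-rich and 62.8% MCM-poor cells.

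MCM-rich cells made up 21.3% ± 7.43 of the kept cells and MCM-poor cells 42.8% ± 10.2 (SD, n = 6 sets). The sets held 4 to 15 MCM-rich and 8 to 27 MCM-poor cells. The lowest MCM-rich share and the highest MCM-poor share were both in L29 HSC-4. Kept cells had 116009 to 1680714 gene counts with a median of 280096, and a median of 5222 genes. The 8 HSC markers (Kit, Ly6a, Slamf1, Procr, Hlf, Mecom, Meis1 and Angpt1) summed to 1808 to 3885 CPM over the MCM-rich sums and 2422 to 3757 CPM over the MCM-poor sums. Of the erythroid markers Car1, and of the 5 myeloid markers Elane and Ctsg, were at 0 in both classes. The erythroid sum ranged over 0 to 121 CPM in MCM-rich and 0 to 46.9 CPM in MCM-poor sums, and the myeloid sum over 641 to 1219 and 686 to 1387 CPM. The B cell markers, with Ms4a1 at 0 in MCM-poor sums, ranged over 26.2 to 163 CPM in MCM-rich and 0 to 132 CPM in MCM-poor sums. T and NK cell markers ranged over 0 to 66.4 and 0 to 21.8 CPM, mast cell markers over 0 to 52.0 and 0 to 124 CPM, megakaryocyte markers over 0 to 361 and 53.8 to 202 CPM, and endothelial and stromal markers over 2.18 to 180 and 1.95 to 178 CPM. In each of these pairs the MCM-rich range comes first, and the ranges overlapped for every marker list.

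MCM-rich cells had more genes detected. The median was 6213 genes in MCM-rich cells and 4745 in MCM-poor cells, and the within-plate difference was 1387 ± 568 genes (SD, n = 6 sets), higher in MCM-rich in 6 of 6 sets (exact two-sided sign-flip p = 0.031, the smallest that 6 sets allow, adjusted p = 0.0781 over 5 measures). With every cell thinned to 100000 counts, the medians were 5109 and 3818 genes in MCM-rich and MCM-poor cells, a difference of 1179 ± 439 with the same exact p. Total counts had medians of 301883 in MCM-rich and 260410 in MCM-poor cells (log2 difference 0.17 ± 0.26, higher in 4 of 6 sets, exact p = 0.188, adjusted p = 0.234). Gene reads per spike-in read, which rise with the RNA content of a cell, had medians of 23.4 in MCM-rich and 15.6 in MCM-poor cells (log2 difference 0.60 ± 0.57, higher in 5 of 6 sets, exact p = 0.0625, adjusted p = 0.104). The mitochondrial share was 3.51% and 3.90% in MCM-rich and MCM-poor cells, with a within-plate difference of -0.39 ± 1.24 points and 0.04 points without L29 HSC-4 (exact p = 0.562 over 6 sets). A gene at 10 CPM is found more easily in a cell with more genes detected, so the lists and the genes that passed limma are also given with depth covariates, as the within-set difference with genes detected and total counts of each cell in the model. No measure passed the adjusted threshold of 0.05, and the part that RNA content or depth plays in the class calls was not tested.

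**Figure D2:**
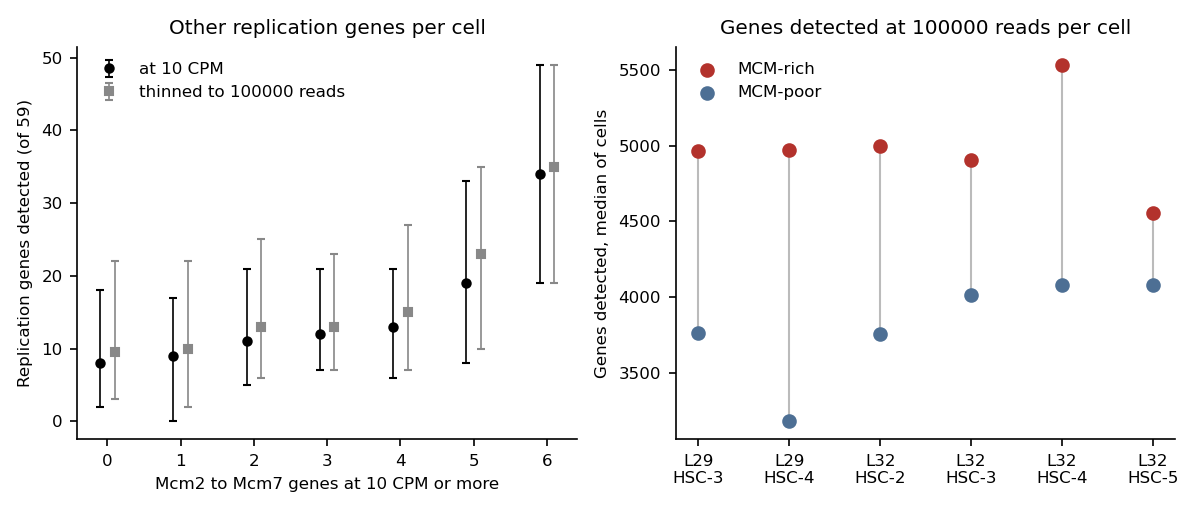
Left, number of 59 other licensing, origin firing and fork genes detected per cell against the number of Mcm genes (points, median; bars, lowest to highest cell), at 10 CPM and after thinning to 100000 reads. Right, median genes detected per cell at 100000 reads in each set, where MCM-rich cells lay above MCM-poor cells in all 6 sets.

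The number of other replication genes per cell was not even among MCM-rich cells. Of 59 licensing, origin firing and fork genes, MCM-rich cells had a median of 21.5 at 10 CPM (6 to 49) and MCM-poor cells a median of 8 (0 to 18). From 0 to 6 Mcm genes the medians were 8, 9, 11, 12, 13, 19 and 34, and after thinning they were 9.5, 10, 13, 13, 15, 23 and 35. Per 1000 genes detected, cells with 6 Mcm genes had a median of 6.62 replication genes, cells with 4 had 3.17 and cells with 0 had 2.47. Cells just inside the rule were thus closer to the left-out cells than to those with all 6 genes. Medians of MCM-rich cells ranged from 17.5 to 29 over the 6 sets and those of MCM-poor cells from 5 to 11. The same cells gave both counts, so this is a description with no test.

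Across all 9683 genes tested, 1 gene passed edgeR's quasi-likelihood test on counts summed by class and set-plate (0.0103% of genes higher in MCM-rich cells, 0% lower). That gene was Uhrf1, which encodes a reader of hemimethylated DNA that brings DNMT1 to new strands (ENSMUSG00000001228, mm10 chr17:56303321-56323486, plus strand). Uhrf1 reached 10 CPM in 22 of 50 MCM-rich and 0 of 101 MCM-poor cells. A count of 0 cells allows a share of up to 2.97%. Of the deposited reads on it, 1421 were in MCM-rich and 4 in MCM-poor cells. Its summed level was 13.2, 85.2 and 186 CPM (lowest, median, highest of 9 set-plates) in MCM-rich cells, against 0, 0 and 0.229 CPM in MCM-poor cells. The classes did not overlap, which is description, since Uhrf1 passed the filter without MCM-poor cells and no share over all genes is given. In the sets, 3 to 5 MCM-rich cells carried it, from 5 of 15 in L32 HSC-3 to 3 of 4 in L32 HSC-2. Within the class it was in 18 of 23 cells with 6 Mcm genes, 4 of 13 with 5 and 0 of 14 with 4. The 38 near-empty wells, which had fewer gene reads than spike-in reads, held 1.62 CPM, against 18.6 CPM in the 66 kept cells of the same sets.

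The fitted log2 fold change of Uhrf1 was 9.07 ± 0.91 (SE, edgeR adjusted p = 0.00797), higher in MCM-rich in 9 of 9 set-plates; with MCM-poor sums near 0 it depends on the prior count and is no bound. On the log2(CPM/10 + 1) scale, which understates changes of low genes, its within-plate difference was 1.81 ± 0.69 (SD, n = 6 sets, limma adjusted p = 0.0317), and the depth-adjusted difference was 1.47 (unadjusted p = 0.000459, adjusted p = 0.256). The edgeR call was lost when L32 HSC-3 (adjusted p = 0.203), L32 HSC-4 (0.0565) or L32 HSC-5 (0.0601) was left out, and when plates were summed into 6 sets (0.189), while the fitted log2 fold changes were 9.12, 8.85, 9.37 and 9.03 in these 4 fits. Over all settings its adjusted p ran from 1.62e-23 in DESeq2 to 1 in cells matched on genes detected, where 18 cells of each class in 5 set-plates gave a fitted log2 fold change of 8.61.

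Other tests on the same cells called different numbers of genes. At an unadjusted p under 0.05 edgeR gave 442 genes, 4.56% of those tested. DESeq2 on the same sums called 136 genes higher in MCM-rich cells (1.4%) and 180 lower (1.86%). Limma on within-plate differences over the 6 sets called 198 higher (2.04%) and 2 lower (0.0207%), and 0 with the depth covariates, where 644 were higher (6.65%) and 206 lower (2.13%) at an unadjusted p under 0.05. The limma count fell to 0 without any 1 of 5 sets and to 104 without L32 HSC-5. Over all genes tested, the median difference was -0.12 in edgeR, 0.26 in limma and 0.07 with the depth covariates, and 75.7%, by limma, and 57.9%, with depth covariates, of genes were above 0. Gene groups below are read against these values, and their counts are those of limma over the 6 sets unless another test is named. In edgeR, 0 genes of these lists other than Uhrf1 passed. The expression filter counted all kept cells, so a gene rare in MCM-poor cells could enter only by being frequent elsewhere. Uhrf1 entered that way, and so did tested genes found in under 10% of MCM-poor cells. These were 4 of 9 for licensing, 3 of 7 for origin firing, 8 of 26 for fork and 5 of 23 for nucleotide synthesis. They were 3 of 18 for replication chromatin, 5 of 14 for checkpoint and repair and 2 of 6 for G2/M. For E2F and cyclins they were 5 of 16. Counts and medians over tested genes of these lists can be tilted upward by this and are given as description.

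**Figure D3:**
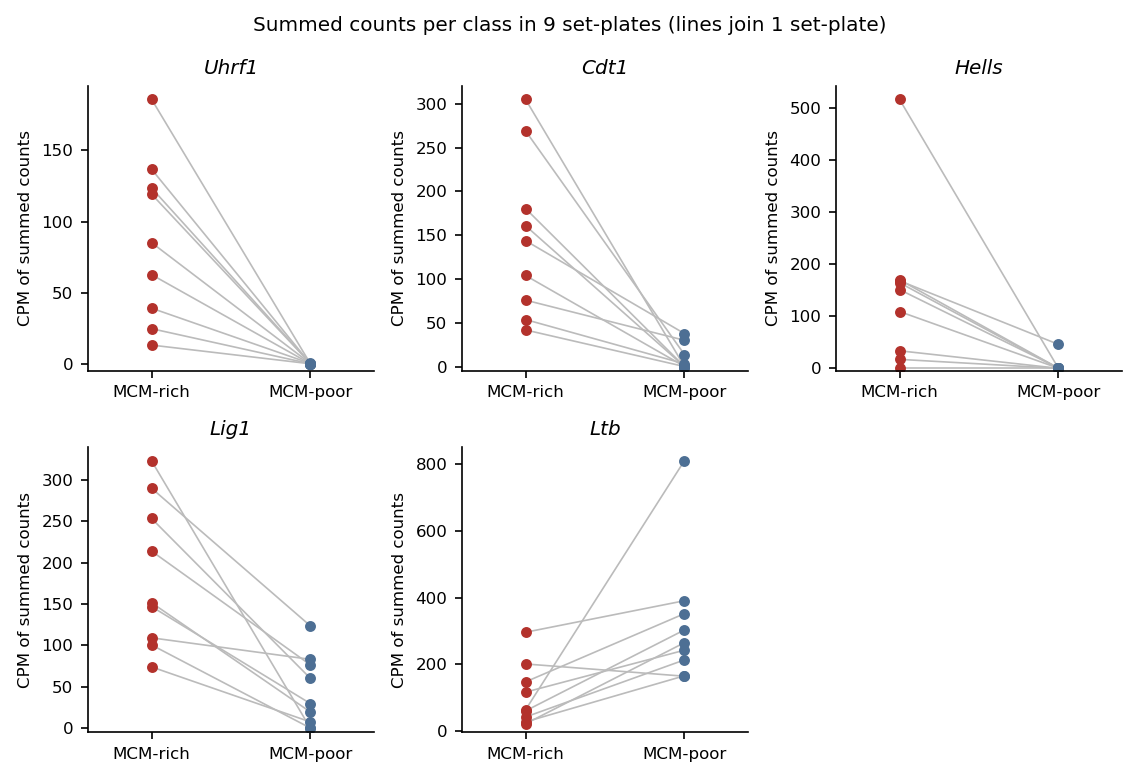
CPM of counts summed over the cells of a class in each of 9 set-plates for 5 genes, MCM-rich left of MCM-poor, with lines joining the classes of 1 set-plate. Uhrf1 and Cdt1, both rare in MCM-poor cells, did not overlap between classes, and Ltb was higher in MCM-rich in 1 of 9 set-plates.

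Among the 13 licensing genes besides Mcm2 to Mcm7, 9 were expressed enough to be tested. Of these, 3 passed limma as higher in MCM-rich cells, and 2.04% of all genes did. Cdt1 and Mcmbp, among the 3, were in under 10% of MCM-poor cells and could enter only by being frequent elsewhere. The count is therefore description. The median within-plate difference of the 9 was 1.15, and 0.94 with depth covariates, where 5 of 9 had an unadjusted p under 0.05 and a positive sign. Cdt1, the helicase loader, reached 10 CPM in 24 of 50 MCM-rich and 4 of 101 MCM-poor cells. Its set-plate values were 41.8, 144 and 305 CPM in MCM-rich cells (lowest, median, highest), against 0, 0.175 and 37.7 CPM in MCM-poor cells. Cdt1 thus did not overlap between classes, but it was in under 10% of MCM-poor cells, and no share over all genes is given. Its within-plate difference was 1.91 ± 0.61 (SD, n = 6 sets, limma adjusted p = 0.0317) and 1.45 with depth covariates (unadjusted p = 0.000105). In edgeR Cdt1 had an adjusted p of 0.686.

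Gmnn, which encodes the CDT1 inhibitor geminin, was at 10 CPM in 21 of 50 MCM-rich and 6 of 101 MCM-poor cells, with set-plate values of 5.07, 71.2 and 328 CPM against 0, 0 and 38.1 CPM. Its within-plate difference of 1.69 ± 1.44 was positive in 6 of 6 sets and did not pass limma (adjusted p = 0.0792). Loader and inhibitor RNA were thus both at 10 CPM in more MCM-rich than MCM-poor cells. Like Cdt1, Gmnn was in under 10% of MCM-poor cells and could enter only by being frequent elsewhere, so this is description. Orc6, a subunit of the origin recognition complex, was in 28 MCM-rich and 17 MCM-poor cells and passed limma (1.45 ± 0.71, adjusted p = 0.0437), although L29 HSC-3 gave a difference of only 0.13. Mcmbp, which binds MCM complexes, was in 19 MCM-rich and 6 MCM-poor cells and passed limma (1.31 ± 0.52, adjusted p = 0.0401). With depth covariates the differences were 1.4 for Gmnn, 0.94 for Orc6 and 0.95 for Mcmbp. Orc4 (23 MCM-rich and 18 MCM-poor cells) and Orc5 (15 and 24 cells) did not pass, and near-empty wells held 756 CPM of Orc4 reads against 68.6 CPM in kept cells. Cdc6, the second loading factor, was below the expression filter and is named after its values were seen, with 15 MCM-rich and 2 MCM-poor cells.

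Of 13 origin firing genes 7 were tested, and 5 passed limma as higher in MCM-rich cells. Cdc45, Gins2 and Cdc7 entered mainly through MCM-rich cells. The median within-plate difference was 1.23 and 0.96 with depth covariates, and the 6 untested genes were 5 more often seen in MCM-rich and 1 more often seen in MCM-poor cells. Cdc45, a subunit of the active helicase, was at 10 CPM in 19 of 50 MCM-rich and 3 of 101 MCM-poor cells, with set-plate values of 12.8, 30.5 and 270 CPM in MCM-rich cells and 0, 0 and 149 CPM in MCM-poor cells. Gins2, a GINS subunit, and Cdc7, the kinase that triggers firing, had the same numbers of cells, 19 MCM-rich and 3 MCM-poor. Their within-plate differences were 1.35 ± 0.82 for Cdc45, 1.23 ± 0.65 for Gins2 and 1.35 ± 0.78 for Cdc7 (SD, n = 6 sets, limma adjusted p of 0.0466, 0.0437 and 0.0448). Cdc7 was higher in 5 of 6 sets and kept 1.20 with depth covariates (unadjusted p = 0.000935), where Cdc45 had 1.05 and Gins2 0.96.

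Topbp1, which helps to load CDC45, was in 23 MCM-rich and 11 MCM-poor cells and passed limma (1.55 ± 0.84, adjusted p = 0.0437; 1.38 with depth covariates). Rif1, which restrains origin firing through a phosphatase, was in 27 of 50 MCM-rich and 30 of 101 MCM-poor cells, with set-plate medians of 130 and 87.4 CPM in MCM-rich and MCM-poor cells. It passed limma as higher in MCM-rich cells (1.02 ± 0.52, adjusted p = 0.0449), and with depth covariates the difference was 0.79 (unadjusted p = 0.0984). The 5 calls thus include a brake on firing beside 4 factors that promote it.

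The fork list held 33 genes, of which 26 were tested, 7 passed limma as higher in MCM-rich cells and 0 as lower. All but 1 of the 26 had a positive within-plate difference, 17 of them in 6 of 6 sets, against 9.89% of all genes with 6 of 6. The median was 1.31 and 0.85 with depth covariates. Lig1, the ligase that joins Okazaki fragments, was at 10 CPM in 32 of 50 MCM-rich and 10 of 101 MCM-poor cells. Its set-plate values were 74.1, 152 and 323 CPM in MCM-rich cells, against 0, 29.8 and 123 CPM in MCM-poor cells, and it was higher in MCM-rich in 9 of 9. The within-plate difference of 2.40 ± 0.82 passed limma (adjusted p = 0.0317), and 2.08 was left with depth covariates (unadjusted p = 0.000653).

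Prim1, the catalytic primase subunit, was in 26 MCM-rich and 6 MCM-poor cells (2.17 ± 1.34, limma adjusted p = 0.0494). Pold1, the catalytic subunit of polymerase delta, was in 28 MCM-rich and 10 MCM-poor cells (1.79 ± 0.84, adjusted p = 0.0365). Tipin, part of the fork protection complex, was in 30 MCM-rich and 19 MCM-poor cells (2.09 ± 0.99, adjusted p = 0.0365), with a depth-adjusted difference of 1.84. The single-strand binding genes Rpa1 (34 MCM-rich and 22 MCM-poor cells, 1.93 ± 0.96) and Rpa2 (30 and 26 cells, 1.35 ± 0.41) and the helicase partner Wdhd1 (18 and 4 cells, 1.38 ± 0.71) also passed limma. With depth covariates the differences were 1.67 for Prim1, 1.51 for Pold1, 1.43 for Rpa1, 0.95 for Rpa2 and 0.94 for Wdhd1. Of these genes Prim1, Pold1, Wdhd1 and Lig1 were each in under 10% of MCM-poor cells. They could enter the test only by being frequent elsewhere, so their calls are description.

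Pcna, the sliding clamp, differed in level more than in detection. It was at 10 CPM in 42 of 50 MCM-rich and 52 of 101 MCM-poor cells, with set-plate values of 45.6, 243 and 409 CPM in MCM-rich cells and 38.4, 84.9 and 100.1 CPM in MCM-poor cells. Its within-plate difference of 1.61 ± 1.00 did not pass limma (adjusted p = 0.0506). Rfc4, a clamp loader subunit, was in 22 MCM-rich and 6 MCM-poor cells and did not pass (adjusted p = 0.0547). Pold4, the smallest subunit of polymerase delta, was in 23 of 50 MCM-rich and 40 of 101 MCM-poor cells, with a within-plate difference of -0.12 ± 1.47, so the subunits of this polymerase were not called together.

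**Figure D4:**
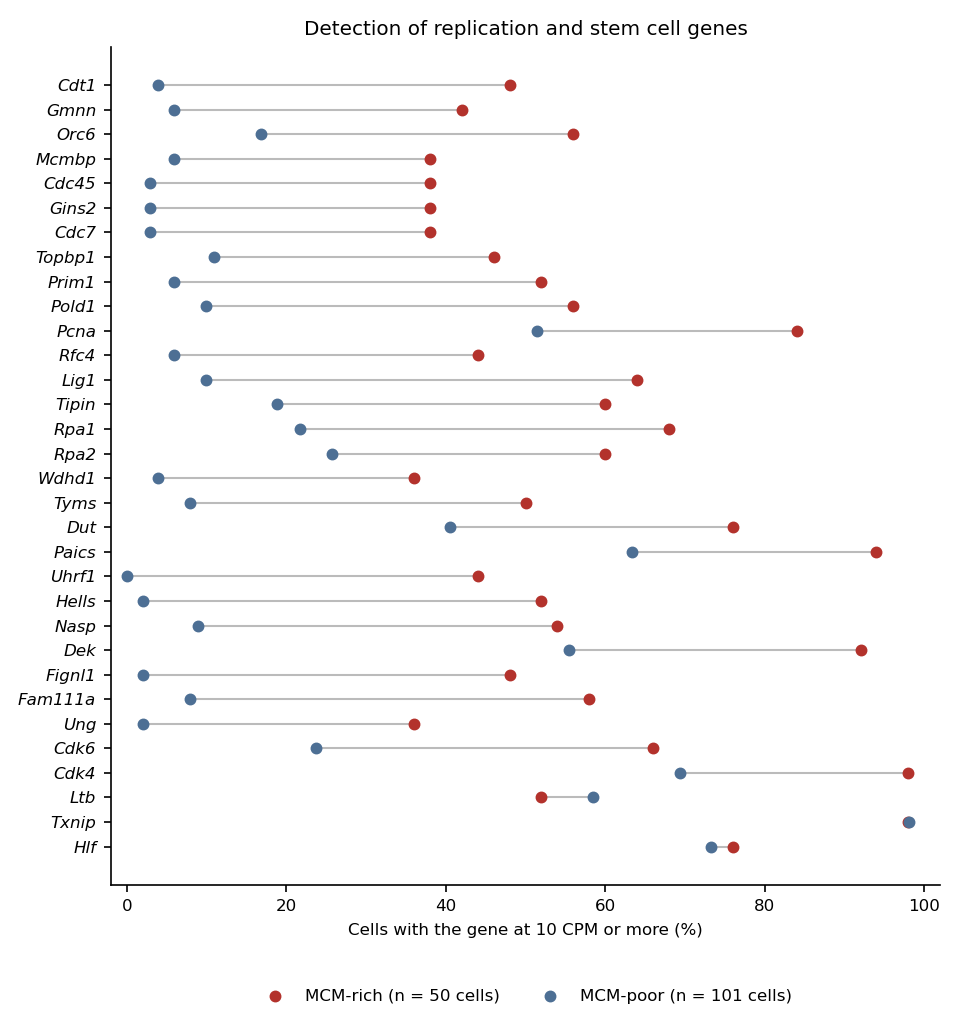
Share of MCM-rich (n = 50) and MCM-poor (n = 101) cells with each gene at 10 CPM or more, for genes of licensing, firing, fork, nucleotide, chromatin, repair, cyclin-dependent kinase and stem cell lists. Uhrf1 was in 44% of MCM-rich and 0% of MCM-poor cells, while Txnip and Hlf differed little in detection.

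Nucleotide synthesis genes showed the same direction. Of 27 genes 23 were tested, 9 passed limma as higher in MCM-rich cells and all 23 had a positive within-plate difference, with a median of 1.44 and 0.85 with depth covariates. Tyms, thymidylate synthase, was in 25 MCM-rich and 8 MCM-poor cells and did not pass (1.73 ± 1.07, limma adjusted p = 0.0547). Dut, the dUTPase, was in 38 MCM-rich and 41 MCM-poor cells and passed (1.84 ± 0.69, adjusted p = 0.0346), as did the purine gene Paics (47 and 64 cells, 1.65 ± 1.00, adjusted p = 0.0494). The folate enzyme Mthfd1, named after its values were seen, also passed (31 and 21 cells, 1.63 ± 0.39, adjusted p = 0.0317). With depth covariates the difference was 1.29 for Dut and 1.14 for Mthfd1, but 0.63 for Paics (unadjusted p = 0.141).

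The replication chromatin list, which holds Uhrf1, had 18 of 20 genes tested, 8 past limma as higher in MCM-rich cells and 0 lower, with a median of 1.47 and 1.09 with depth covariates. Hells, a chromatin remodeler needed for DNA methylation, was at 10 CPM in 26 of 50 MCM-rich and 2 of 101 MCM-poor cells, although 1 of the MCM-rich set-plates was at 0. Its set-plate values were 0, 151 and 517 CPM in MCM-rich cells and 0, 0 and 46.0 CPM in MCM-poor cells (2.20 ± 0.93, limma adjusted p = 0.0346; edgeR adjusted p = 0.189). It was in 18 of 23 cells with 6 Mcm genes and in 1 of 14 with 4. Nasp, a histone chaperone, was in 27 MCM-rich and 9 MCM-poor cells and did not pass (2.13 ± 1.68, limma adjusted p = 0.0546). Dek, a chromatin architectural gene, was in 46 MCM-rich and 56 MCM-poor cells and passed (2.09 ± 1.15, adjusted p = 0.0367). The maintenance methyltransferase Dnmt1 (30 and 15 cells, 1.97 ± 0.96) and the HELLS partner Cdca7 (39 and 25 cells, 2.58 ± 1.07), both named after their values were seen, passed limma. With depth covariates the differences were 1.81 for Hells, 1.46 for Dek, 2.17 for Dnmt1 and 1.94 for Cdca7. UHRF1, DNMT1, HELLS and CDCA7 are all known from the maintenance of DNA methylation. This grouping includes genes named after their values were seen, and it was not tested. Uhrf1 and Hells were in under 10% of MCM-poor cells and could enter only by being frequent elsewhere.

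Of 21 checkpoint and repair genes 14 were tested and 4 passed limma as higher in MCM-rich cells, with a median of 1.09 that was 1.05 with depth covariates. Fignl1, which acts in homologous recombination, was at 10 CPM in 24 of 50 MCM-rich and 2 of 101 MCM-poor cells, with set-plate values of 17.2, 188 and 315 CPM in MCM-rich cells and 0, 0 and 18.0 CPM in MCM-poor cells (2.23 ± 1.20, limma adjusted p = 0.0365; edgeR adjusted p = 0.189). Fam111a, a protease that acts at replication forks, was in 29 MCM-rich and 8 MCM-poor cells (2.07 ± 0.54, limma adjusted p = 0.0317), but near-empty wells held 177 CPM of it against 52.0 CPM in kept cells. The mismatch repair gene Msh6, named after its values were seen, passed (32 and 16 cells, 2.07 ± 0.87). With depth covariates the differences were 1.92 for Fignl1, 1.65 for Fam111a and 1.42 for Msh6. Ung, which removes uracil from DNA, was in 18 MCM-rich and 2 MCM-poor cells and did not pass (adjusted p = 0.0586).

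In the E2F and cyclin list, 16 of 28 genes were tested and 1 passed, Cdk6. This G1 kinase was at 10 CPM in 33 of 50 MCM-rich and 24 of 101 MCM-poor cells, with set-plate values of 17.1, 155 and 315 CPM in MCM-rich cells and 0.554, 69.2 and 175 CPM in MCM-poor cells (1.66 ± 0.67, limma adjusted p = 0.0365; 0.96 with depth covariates, unadjusted p = 0.0418). Its relative Cdk4 was in 49 and 70 cells and did not pass (1.59 ± 1.00, limma adjusted p = 0.0565), nor did Tfdp1, the dimer partner of E2F factors (31 and 16 cells, adjusted p = 0.0701). The cyclins D of these kinases had within-plate differences of opposite sign that did not pass, 0.95 ± 0.58 for Ccnd3 and -0.56 ± 0.99 for Ccnd2, which had set-plate medians of 630 and 722 CPM in MCM-rich and MCM-poor cells. The list's median was 0.72, and 0.50 with depth covariates.

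Mitotic genes were rarer than replication genes. Only 6 of 30 G2/M genes were expressed enough to be tested, with a median of 1.05 and 0.74 with depth covariates, and Smc2 alone passed limma (24 MCM-rich and 16 MCM-poor cells, 1.43 ± 0.77, adjusted p = 0.0437; 1.10 with depth covariates). Near-empty wells held 219 CPM of this condensin subunit against 46.7 CPM in kept cells. Top2a, the topoisomerase that untangles sister DNA, was in 16 of 50 MCM-rich and 8 of 101 MCM-poor cells and did not pass (limma adjusted p = 0.123). Kif23, a cytokinesis motor, was in 5 MCM-rich and 17 MCM-poor cells, with a within-plate difference of -0.35 ± 1.13. Of the 6 tested genes 5 had a positive within-plate difference, and the 24 untested genes were all more often seen in MCM-rich cells.

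Cells with at least 5 of the 30 G2/M genes at 10 CPM were 16 of 50 MCM-rich cells (32.0%, exact 95% interval 19.5 to 46.7) and 3 of 101 MCM-poor cells (2.97%, 0.617 to 8.44). The within-plate difference was 35.0 percentage points ± 26.3 (SD, n = 6 sets), positive in 6 of 6 sets (exact two-sided sign-flip p = 0.031, the smallest possible). Per set, 1 to 4 MCM-rich cells and 0 to 2 MCM-poor cells counted, and in L29 HSC-4 these were 4 of 5 and 0 of 27. Of the 16 MCM-rich cells, 12 had all 6 Mcm genes. The remaining 34 of 50 MCM-rich cells did not reach 5 G2/M genes. Without Smc4, a condensin gene whose level was 418 CPM in wells without a usable cell and 122 CPM in kept cells, the counts were 12 of 50 and 1 of 101. With at least 3 of the 30 genes the counts were 33 of 50 MCM-rich and 29 of 101 MCM-poor cells (66.0% and 28.7%), a difference of 39.9 points. After thinning they were 19 of 50 and 7 of 101. Among cells matched on genes detected they were 5 of 24 and 1 of 24 (20.8% and 4.17%). The mean of the within-plate difference over sets was then 32.8 points ± 46.7 (SD, n = 6 sets). It was positive in 3 sets, 0 in 2 and negative in 1 (exact two-sided sign-flip p = 0.250).

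Genes of growth and energy metabolism had positive within-plate differences in all 24 and all 22 genes tested, against 75.7% of all genes. With depth covariates 16 of 24 and 19 of 22 were positive, against 57.9% of all genes. In edgeR the fitted change was positive for 15 of 24 and 14 of 22, against 43.6% of all genes. All 24 growth genes were tested, 2 passed limma as higher and the median was 0.75, or 0.62 with depth covariates. Hspd1, a mitochondrial chaperone, passed (47 and 60 cells in MCM-rich and MCM-poor, 1.65 ± 0.71, limma adjusted p = 0.0365; 0.98 with depth covariates), while the nucleolar genes Ncl (50 and 85 cells, adjusted p = 0.0621) and Gnl3 (43 and 44 cells, adjusted p = 0.0660) did not. All 22 oxidative phosphorylation genes were tested, 1 passed, and the median was 0.77, or 0.39 with depth covariates. The ATP synthase gene Atp5b had set-plate medians of 1389 and 913 CPM in MCM-rich and MCM-poor cells (0.79 ± 0.72), and the cytochrome oxidase gene Cox4i1 610 and 704 CPM (0.04 ± 0.41), and neither passed.

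Stem cell and quiescence genes lay on the other side or near 0. Of 29 long-term HSC genes 28 were tested, with 0 higher and 1 lower by limma (0.0207% of all genes were lower), and a median of -0.17, or -0.22 with depth covariates. That gene was Ltb, a membrane-bound cytokine of the TNF family. It had set-plate values of 20.9, 62.7 and 296 CPM in MCM-rich cells, against 164, 265 and 811 CPM in MCM-poor cells, and was lower in MCM-rich in 8 of 9 set-plates. It fell in MCM-rich cells by 1.54 ± 0.86 on the log2(CPM/10 + 1) scale (SD, n = 6 sets, limma adjusted p = 0.0437), in 6 of 6 sets, and the depth-adjusted difference was -1.21 (unadjusted p = 0.0230). Ltb was at 10 CPM in 26 of 50 MCM-rich and 59 of 101 MCM-poor cells.

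Hlf, a transcription factor of HSCs, had set-plate medians of 191 and 338 CPM in MCM-rich and MCM-poor cells and was at 10 CPM in 38 of 50 and 74 of 101 cells (within-plate difference -0.44 ± 0.91). Pdzk1ip1, a small membrane protein gene used as an HSC marker, had medians of 265 and 484 CPM (-0.70 ± 1.00). Neither passed, and near-empty wells held 1242 CPM of Pdzk1ip1 against 495 CPM in kept cells. Of the 26 HSC identity genes 25 were tested with a median of 0.28, or -0.09 with depth covariates, and 1 passed. Cd34, which marks more active HSCs and progenitors, was in 36 of 50 MCM-rich and 43 of 101 MCM-poor cells (1.21 ± 0.57, limma adjusted p = 0.0437; 0.93 with depth covariates, unadjusted p = 0.0420). The stem cell factor receptor gene Kit had medians of 394 and 639 CPM in MCM-rich and MCM-poor cells (0.08 ± 0.65). Kit, on which the sort relied, was at 10 CPM in 46 of 50 MCM-rich and 84 of 101 MCM-poor cells.

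Of 18 quiescence genes 10 were tested and 0 passed in either direction, with a median of -0.22, or -0.68 with depth covariates. Txnip, an inhibitor of thioredoxin and glucose uptake, was at 10 CPM in 49 of 50 MCM-rich and 99 of 101 MCM-poor cells, with set-plate values of 678, 1214 and 2360 CPM in MCM-rich cells and 803, 2109 and 3633 CPM in MCM-poor cells. Its within-plate difference was -0.97 ± 0.90, negative in 5 of 6 sets (limma adjusted p = 0.153), and -1.34 with depth covariates (unadjusted p = 0.0103). Dusp1, a MAP kinase phosphatase, was in 5 MCM-rich and 19 MCM-poor cells (-0.40 ± 0.66). Neither of these genes passed edgeR or limma, and DESeq2 called Txnip lower in MCM-rich cells (adjusted p = 0.0197).

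Lysosome and autophagy genes had 17 of 18 tested, 1 higher by limma and 0 lower, with a median of 0.38, or 0.02 with depth covariates. The autophagy gene Gabarapl1 had set-plate values of 138, 281 and 499 CPM in MCM-rich cells and 143, 423 and 678 CPM in MCM-poor cells, and was lower in MCM-rich in 9 of 9 set-plates. DESeq2 called it lower (adjusted p = 0.00822), while edgeR (adjusted p = 0.636) and limma (adjusted p = 0.207, difference -0.88 ± 1.07) did not, and the depth-adjusted difference was -1.53 (unadjusted p = 0.00170). Map1lc3b, another gene of autophagosome membranes, had medians of 316 and 474 CPM in MCM-rich and MCM-poor cells and was not called.

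**Figure D5:**
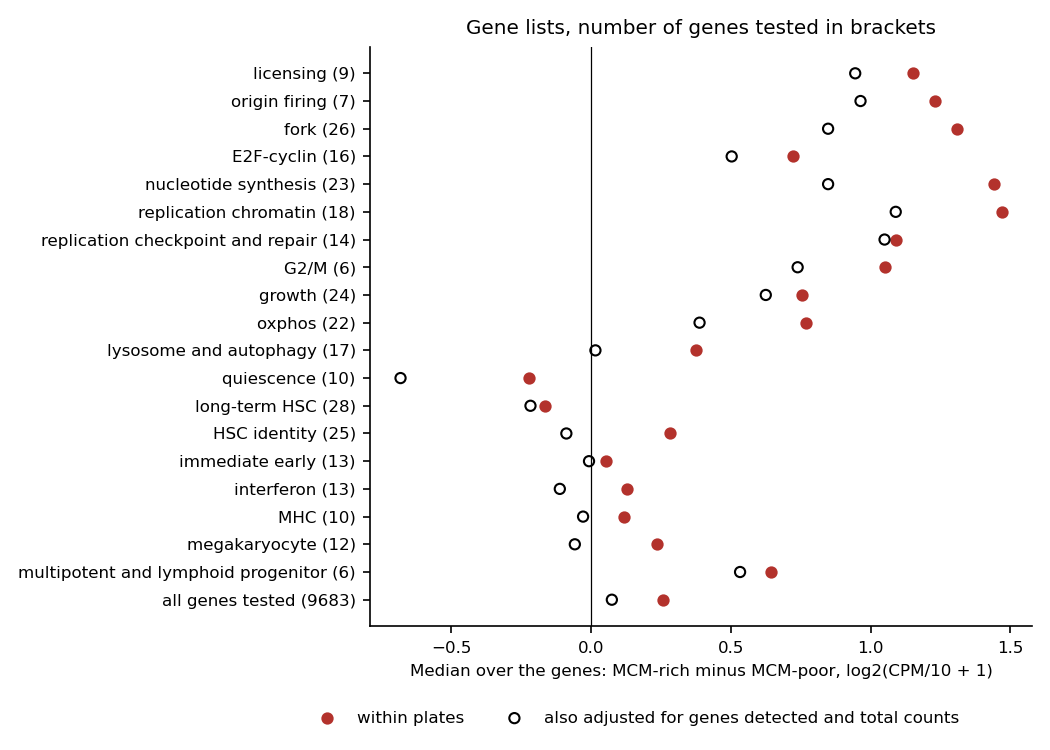
Median over the tested genes of each list of the MCM-rich minus MCM-poor difference on the log2(CPM/10 + 1) scale, within plates (filled) and also adjusted for genes detected and total counts (open), for lists with at least 6 genes tested. All genes tested lay at 0.26 and 0.07, replication lists between 0.50 and 1.47, and the quiescence list at -0.22 and -0.68. Growth genes (0.754 and 0.625) and multipotent and lymphoid progenitor genes (0.645 and 0.533) also lay within the range of the replication lists.

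In the remaining lists few genes passed. Interferon genes had 13 of 14 tested and 0 past limma, with a median of 0.13, or -0.11 with depth covariates. Irf1, an interferon response factor, was at 10 CPM in 15 of 50 MCM-rich and 35 of 101 MCM-poor cells. Its depth-adjusted difference was -1.82 (limma unadjusted p = 0.000572), and 0 of all genes tested passed that fit after adjustment. Immediate early genes had 13 of 22 tested (median 0.05), MHC genes 10 of 10 (0.12) and megakaryocyte genes 12 of 18 (0.23), with 0 past limma in each. Erythroid genes had 4 of 16 tested (0.23), myeloid genes 3 of 16 (0.40), B cell genes 1 of 9 and endothelial and stromal genes 4 of 12 (-0.08), again with 0 past limma. Of the multipotent and lymphoid progenitor genes 6 of 14 were tested, with 1 past limma and a median of 0.64. No T and NK or mast cell gene was expressed enough to be tested. Without L29 HSC-4 the medians of the licensing, firing, fork, nucleotide and replication chromatin lists were 1.10, 1.19, 1.13, 1.38 and 1.30, close to those over all sets.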

How the data were processed

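Single cells were sorted into wells and their poly(A) cDNA was amplified with 22 PCR cycles, per the labels' protocols. The authors deposited 1 table of raw counts, a row for each gene and a column for each well. GSNAP, featureCounts 1.6.2 and the build mm10 are listed in what the submitters noted on processing (per the submitters' processing notes), and Ensembl release 87 stands in the name of the deposited table. Strand and multi-mapping settings are not given in the sources used here, so genes with near-identical copies or overlapping partners are uncertain. Without molecular identifiers PCR copies count more than once, so exact Clopper-Pearson 95% intervals and floors (3 counts) cover counting error only.

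Cells with at least 100000 counts on Ensembl genes and 1000 genes were kept, and CPM was computed over those genes, leaving out spike-in and transgene rows. No doublet caller was run, since a well received 1 sorted cell. Genes at 10 CPM in at least 10% of kept cells were tested, without Mcm2 to Mcm7. Counts were summed per class and set-plate (at least 3 cells of each class) and tested in edgeR 4.0.16 (quasi-likelihood, TMM, set-plate as block, Benjamini-Hochberg, 0.05). Limma 3.58.1 tested mean log2(CPM/10 + 1) differences (pseudocount 1 on CPM/10) averaged within plates to 1 value for each of 6 sets, with and without log genes detected and log total counts of each cell as covariates. DESeq2 1.42.0 left the adjusted p of 751 genes as NA. Single measures used exact two-sided sign-flip tests over 6 sets. Scripts were tested on simulated data.

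The members, the 25 gene lists (463 different genes), the tests and the naming rule were chosen with earlier results of these data known. The rule took, per direction, up to 12 genes past edgeR with 1 sign in at least 5 of 6 sets, tested genes of the licensing, origin firing, fork and E2F-cyclin lists, and the 4 genes with the smallest p of every other list. Results for a few genes are not reported here. Alternatives were other size factors, filters, thresholds, thinning, matching and leaving out sets.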

Additional observations from a re-analysis of the deposited data

Results flagged for a closer look

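In 5 of 67 quantities with 1 value per set, 1 set lay far from the other 5; chance alone flags about 1 in 20 such groups. The share of MCM-poor cells was 62.8% in L29 HSC-4, against 34.2% to 41.3% in the other sets. The within-plate difference of Orc4 was -0.0709 in L32 HSC-5, against 1.05 to 1.61 elsewhere. That of Orc6 was 0.127 in L29 HSC-3, against 1.6 to 2.07. Rif1 had a difference of 2.09 in L32 HSC-2, against 0.57 to 1.06, and Map1lc3b one of 1.61 in L29 HSC-4, against -0.95 to -0.11.

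The H2B-GFP transgene row, which entered no comparison, had more than 3 counts in 3 of 232 kept cells of these uninduced mice. None of the 50 MCM-rich cells was among them, 2 of the 101 MCM-poor cells were (126 and 22 counts), and 1 cell with 2 or 3 Mcm genes was (61 counts).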

How the results depend on the processing

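The count of 1 gene in edgeR was also 1 with other size factors, without an expression filter, after thinning and with a filter of 3 median absolute deviations on cells. It was 316 in DESeq2 and 200 in limma over 6 sets, and it was 0 in limma with depth covariates, with a 25% expression filter, with sums per set, in matched cells, at an Mcm threshold of 20 CPM, for 5 or 6 against 0 Mcm genes, in L32 alone and in L29 alone. Leaving out 1 set gave 0 to 2 genes, adding Hells without L29 HSC-3 and replacing Uhrf1 by Txnip (lower) without L32 HSC-4. For limma over 6 sets, leaving out 1 set, chosen after seeing the data, gave 0 to 104 genes. DESeq2 and limma shared 60 genes, 19.0% and 30.0% of their calls.

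The G2/M difference was 32.8 points in matched cells (exact p = 0.250), where 24 of 50 MCM-rich cells had a partner, and 26.1 to 39.7 points without 1 set, where 5 sets cannot give a p under 0.0625. The mitochondrial difference ran from -0.575 points without L32 HSC-4 to 0.0368 points without L29 HSC-4, where its sign turned.

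Of 1217 values of 59 named genes, 1129 kept direction and side of the threshold, 64 passed only in the alternative (32 in DESeq2, 30 in limma) and 10 of Uhrf1 no longer passed. The sign turned in 14 values, none called in edgeR as reported or in the setting that turned it. With limma over 6 sets these were Orc5 (0.22), Cox4i1 (0.0382) and Kit (0.0762, and 0.00200 with depth covariates). With 5 or 6 against 0 Mcm genes they were Orc5 (1.91), Rif1 (-0.00216) and Kit (0.0587). In L29 alone they were Pold4 (0.20) and Ccnd3 (-0.0803), and in matched cells Cdk4 (-0.0189), Mthfd1 (-0.49), Kif23 (3.53), Cox4i1 (0.12) and Hlf (1.00). Among these genes Rif1 and Mthfd1 had passed limma over 6 sets as higher in MCM-rich cells. Classes were compared within set-plates in edgeR, or within sets where plates were summed, and as within-plate differences in limma, so each fit already paired them. The labels give 1 group with no replicate numbers shared between groups.

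With 4 to 15 MCM-rich cells per set and 2.8 reads at 10 CPM, a gene at 0 cells may still be expressed below detection.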
